A study of Mus musculus with 12 samples.

Results

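A pair of populations of myeloid cells sorted from the mammary glands of lean mice were compared: cells that carried CD11b but not CD34, and cells that carried both. The comparison covered 6 of the 12 samples of the study and 594 of the 760 genes measured. A gene was kept when its linear value was at least 20 in at least 3 of the 12 samples, and the other 166 genes were left out, none of which exceeded a linear value of 60.3 in a low-fat sample. The animals were female FVB/N mice that received a low-fat diet (2920X) or a high-fat diet (58Y1) from 3 weeks of age for 16 weeks, with 3 mice per diet. All groups shared the strain, the sex, the age and the sort. The tissue was taken apart by 1 hour in collagenase followed by trypsin, and live CD45+ cells were sorted into CD11b+CD34- and CD11b+CD34+ fractions. The study calls the CD34- cells monocytes and macrophages and the CD34+ cells myeloid progenitors. The 4 groups were therefore CD34- and CD34+ cells on the low-fat diet and CD34- and CD34+ cells on the high-fat diet, with 3 samples each. The low-fat samples were the 6 compared here, and the high-fat samples entered for the spread between samples and for the comparison of diets. RNA was amplified with a low-input kit and counted with probes of a fibrosis panel on the NanoString nCounter, which counts barcoded probes instead of reads.

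CD11b is an integrin chain on monocytes, macrophages, neutrophils and many dendritic cells, and it is also found on mature natural killer (NK) cells. CD34 is a surface sialomucin of blood stem and progenitor cells, and it is also found on endothelial cells, on some stromal cells of adipose tissue and, in the mouse, on mast cells. Macrophages of the mammary gland clear debris and remodel the collagen matrix around the ducts, while NK cells kill target cells with perforin and granzymes and release interferon-gamma.

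Depth differed between the low-fat samples. The CD34- totals were 457817, 404179 and 78316 counts, and the CD34+ totals were 313528, 157361 and 406892. The CD34- sample of replicate 3 was the shallowest of the whole series, in which totals ran from 78316 to 780070. In a low-fat sample, 30.8% to 50.2% of the total came from its top 10 genes. Between 4 and 55 genes of a low-fat sample stood at its lowest value, which corresponded to 1 count and may be a floor. Along the first principal component of the 6 low-fat samples, which held 51.7% of the variance, the 3 CD34- samples lay apart from the 3 CD34+ samples. Samples with the same replicate number deviated together from their group means, with correlations of 0.306, 0.311 and 0.434 across genes, against -0.375 to 0.143 for samples with different numbers. Deviations from a group mean cancel out within the group, so positive correlations of same numbers lower those of different numbers. Nothing in the labels says that same-numbered samples came from 1 mouse.

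Of the 594 genes, 131 (22.1%) differed between the populations at an adjusted p under 0.05. Of these, 37 (6.23%) were higher and 94 (15.8%) lower in CD34- cells. The test was limma on the deposited log2 values of all 12 samples, with the replicate number within a diet as a random block and Benjamini-Hochberg adjustment. Differences below are CD34- minus CD34+ on the log2 scale and are given with their standard error. The median difference of all 594 genes was -0.14. A difference of at least 1 in either direction was seen in 91 of the 131 genes, 30 higher and 61 lower. The 3 CD34- values lay wholly above or below the 3 CD34+ values in 110 of the 131, against 149 (25.1%) of all 594. In 129 of the 131 all 3 pairs of same-numbered samples differed in the same direction, against 292 of all 594. The genes were called from these same samples with the pairs as blocks, so the 129 are no separate evidence.

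Pairing mattered for the number of genes. Without the block 58 genes passed (9.76%), 16 higher and 42 lower, all of them among the 131. With the replicate number within a diet as a fixed term 149 passed (25.1%). Leaving out 1 low-fat sample at a time gave 89 to 106 genes, and 61 of the 131 (17 higher, 44 lower) passed in all 6 of these fits. The split between higher and lower genes also depended on the scaling. Higher genes made up 28.2% of those passing on the deposited values, 37.0% after each sample was centred on its median, 44.4% after quantile normalization and 46.3% with voom on the recovered counts. The median difference of all genes moved from -0.14 to -0.10, 0.01 and -0.00036 in these fits, and the small list medians given below are to be read beside that shift. Counts of lists are to be read beside the 6.23% and 15.8% of all genes that were higher and lower. In 33 of the 94 lower genes the shallow CD34- sample of replicate 3 held fewer than 20 counts.

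**Figure D1:**
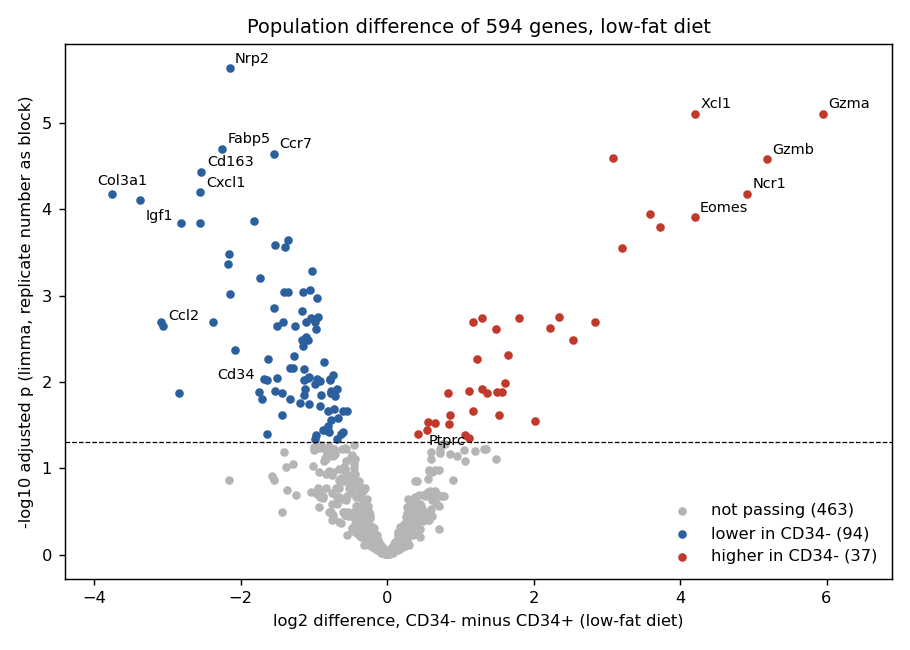
Each point is 1 of 594 genes, with its log2 difference between CD34- and CD34+ cells of the low-fat diet on the x axis and -log10 of the adjusted p (limma, replicate number as block) on the y axis. The dashed line marks an adjusted p of 0.05, with 37 red genes higher and 94 blue genes lower in CD34- cells, and the granzymes reach the largest differences.

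For the CD34 and CD45 antigens the sort was read from their genes. Itgam, the gene of CD11b, is not reported here, so the CD11b gate was not read. Cd34 stood at log2 values of 4.41, 4.30 and 2.85 in CD34- cells and at 5.84, 4.96 and 5.78 in CD34+ cells. The groups did not overlap, but the probe was low, with 2 to 34 counts in CD34- cells and 15 to 70 in CD34+ cells. The difference was -1.68 ± 0.42 (adjusted p = 0.00931, limma), and it did not pass without the CD34- sample (adjusted p = 0.0724) or the CD34+ sample (0.0673) of replicate 3. Ptprc, which encodes CD45, stood at 11.48, 11.23 and 11.52 in CD34- cells and at 11.07, 10.75 and 11.13 in CD34+ cells. Its difference of 0.42 ± 0.14 passed with all samples (adjusted p = 0.04, limma) but in none of the 6 fits that left a sample out (adjusted p 0.0736 to 0.171).

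Most genes of cell killing were higher in CD34- cells, with the highest median of the lists. Of the 6 tested genes of cytotoxic granules and killing, 5 were higher and none lower, with a median difference of 3.66 beside -0.14 for all genes. Gzma, a granule serine protease, stood at 11.05, 9.35 and 12.62 in CD34- cells and at 4.47, 5.06 and 5.63 in CD34+ cells. Every CD34- sample thus lay far above every CD34+ sample, and the difference was 5.95 ± 0.57 (adjusted p = 7.82e-06, limma), with a range of 5.25 to 6.78 when 1 low-fat sample was left out. Gzmb, the granzyme that activates caspases in target cells, stood at 9.73, 8.49 and 11.35 against 4.55, 3.06 and 6.42. Its CD34+ sample of replicate 2 held 4 counts, and the difference was 5.19 ± 0.59. Prf1, which encodes the pore-forming perforin, was higher by 3.72 ± 0.53, the granule membrane protein gene Nkg7 by 3.59 ± 0.48 and the cathepsin gene Ctsw by 3.09 ± 0.35. Tnfsf10, which encodes the death ligand TRAIL, did not pass (0.44, adjusted p = 0.629, limma).

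All 9 tested NK cell markers and type 1 cytokine genes (of 10 on the panel, Tbx21 being left out as low) were higher in CD34- cells, with a median difference of 2.35, and 7 of them were also higher without the block. Ncr1, which encodes the NK receptor NKp46, stood at 7.59, 5.81 and 9.68 in CD34- cells and at 1.81, 3.06 and 3.46 in CD34+ cells. The CD34+ values rested on 3, 4 and 14 counts, and the difference was 4.92 ± 0.62 (adjusted p = 6.6e-05, limma). Xcl1, a chemokine that attracts cross-presenting dendritic cells, stood at 9.67, 8.36 and 10.08 against 5.68, 4.06 and 5.74. All 3 pairs of Xcl1 differed by about the same amount, and the difference was 4.21 ± 0.41 (adjusted p = 7.82e-06, limma). Eomes, a T-box transcription factor of NK cells, was higher by 4.20 ± 0.57, with 1 count in the CD34+ sample of replicate 2. Il2rb, the receptor chain for interleukins 2 and 15, was higher by 3.20 ± 0.49 and Il12rb2, a chain of the interleukin 12 receptor, by 1.80 ± 0.35. Ifng, which encodes interferon-gamma, stood at 8.71, 6.11 and 8.02 in CD34- cells and at 5.43, 4.96 and 5.41 in CD34+ cells. The CD34- sample of replicate 2 had the lowest Ifng of its group and still lay above all CD34+ samples (2.35 ± 0.45, adjusted p = 0.00174, limma). The lectin receptor genes Klrd1 and Klrk1 were higher by 1.29 ± 0.25 and 0.83 ± 0.22, and Klrk1 did not pass without the block (adjusted p = 0.0809) or without the CD34- (0.107) or CD34+ (0.102) sample of replicate 3. Il18r1, which encodes the interleukin 18 receptor, was higher by 1.30 ± 0.34 but did not pass without the block (adjusted p = 0.087), nor without the CD34- (0.108, difference 0.82) or the CD34+ sample (0.0754) of replicate 3.

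**Figure D2:**
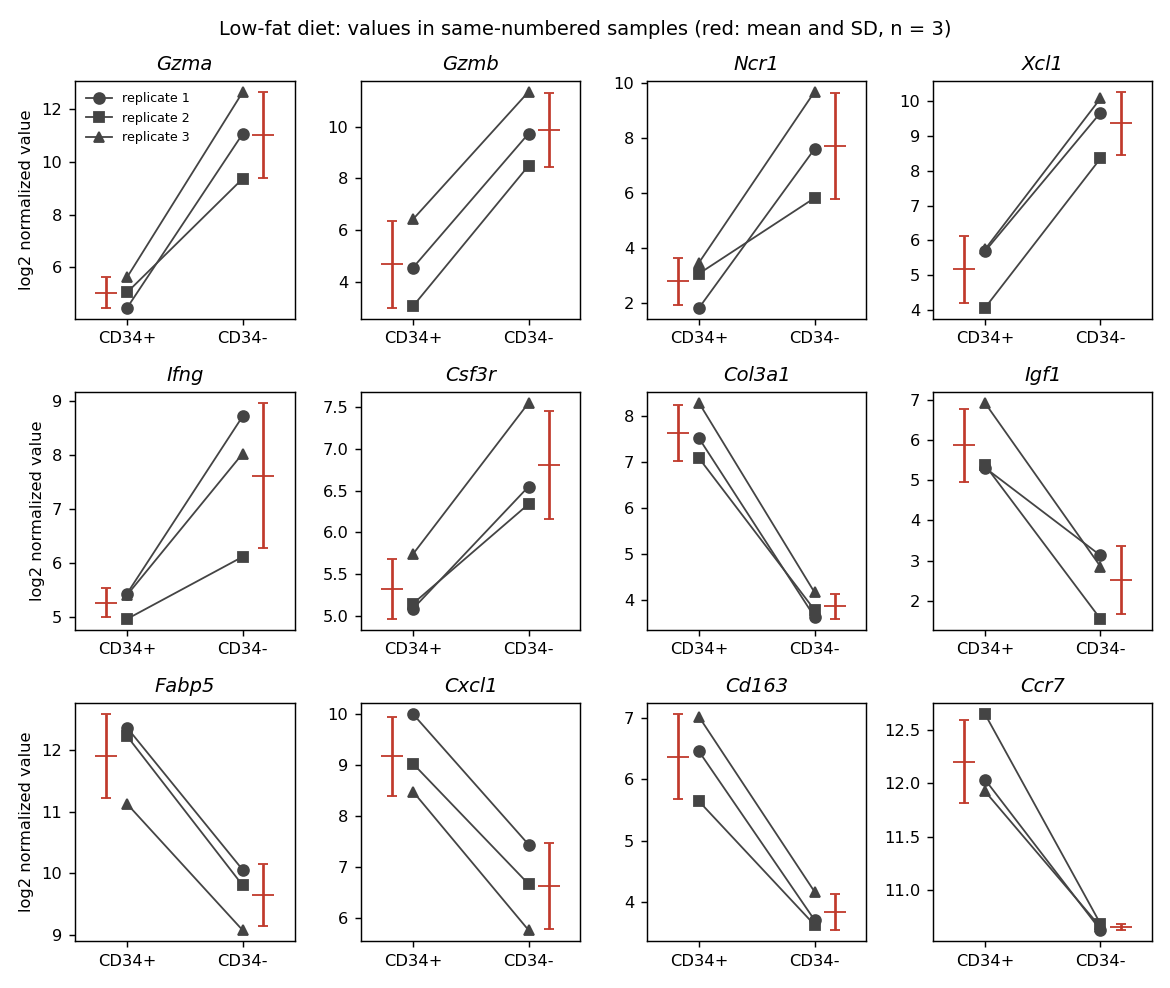
Log2 normalized values of 12 genes in the 6 low-fat samples, with a line joining same-numbered samples and the mean and SD of each group (n = 3) in red. In all 12 panels every line runs the same way, upward to CD34- cells for Gzma, Gzmb, Ncr1, Xcl1, Ifng and Csf3r and downward for Col3a1, Igf1, Fabp5, Cxcl1, Cd163 and Ccr7.

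The summed linear value of all 10 NK genes on the panel, Tbx21 included, ran from 1861 to 6733 in CD34- cells and from 680 to 853 in CD34+ cells, and none of the markers fell to 0 in the files, whose lowest value is 1 count. Sums given below likewise cover every listed marker on the panel. In bulk samples such as these, fewer cells of a type and less RNA per cell cannot be told apart. The NK genes were not the only ones of other cell types that moved with the CD34- label, and their part in the other differences was not tested.

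The promoters of Xcl1 and Nkg7 are shown because they held, among the higher genes, the letters of a T-box motif (GGTGTNA, both strands), the family of Eomes. The windows run from 250 bases before to 50 bases after the gene start and come from RefSeq (GRCm38.p6), 5′ to 3′ on the strand of the gene, with the matching letters in capitals. Xcl1 lies at chr1:164935473-164935772 on the minus strand and Nkg7 at chr7:43436888-43437187 on the plus strand.
Xcl1: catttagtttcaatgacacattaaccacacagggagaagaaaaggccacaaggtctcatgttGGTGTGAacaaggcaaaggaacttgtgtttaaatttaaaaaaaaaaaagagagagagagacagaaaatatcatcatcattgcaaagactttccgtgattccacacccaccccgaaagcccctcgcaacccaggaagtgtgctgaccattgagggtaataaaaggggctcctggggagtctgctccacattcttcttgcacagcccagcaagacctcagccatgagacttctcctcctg
Nkg7: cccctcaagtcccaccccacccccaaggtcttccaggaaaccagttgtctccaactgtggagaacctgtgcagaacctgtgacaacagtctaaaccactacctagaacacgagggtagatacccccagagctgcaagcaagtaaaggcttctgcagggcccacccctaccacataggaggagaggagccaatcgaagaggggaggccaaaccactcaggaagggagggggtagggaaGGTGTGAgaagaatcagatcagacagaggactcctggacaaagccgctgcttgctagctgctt
These letters were in 2 of the 30 higher genes with a window (6.67%), in 7 of 72 lower genes (9.72%), in 8.97% of the 446 tested genes with a window and in 10.1% of all 27025 windows. Their share among the higher genes was thus no larger than in the background.

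T and B cell genes were higher in part, and less firmly. Of 12 tested T cell markers 3 were higher and none lower (median 0.80), but none of them passed without the block or without the CD34- sample of replicate 3. Icos, a costimulatory receptor, stood at 8.49, 8.90 and 10.84 in CD34- cells and at 7.67, 7.25 and 8.73 in CD34+ cells, so that the groups overlapped. Its difference was 1.53 ± 0.46 (adjusted p = 0.0239, limma), and of the 6 fits that left 1 sample out it passed only in the one without CD34- replicate 1, and it was 0.97 without CD34- replicate 3 (adjusted p = 0.233). The others were Gata3 (1.11 ± 0.37), a transcription factor of T helper cells, and Cd3g (1.06 ± 0.35), a chain of the T cell receptor complex. Gata3 passed in none of the 6 fits that left a sample out (adjusted p 0.0565 to 0.231), and Cd3g passed only in the one without CD34+ replicate 3 (adjusted p 0.0482 to 0.252 over the 6). The coreceptor genes Cd4, Cd8a and Cd8b1 did not pass, with differences of 0.49, -0.08 and -0.19. Summed T cell markers ran from 2432 to 6784 in CD34- cells and from 1521 to 3143 in CD34+ cells, and in both populations the sample of replicate 3 was the highest.

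Of 4 tested B cell markers 2 were higher, none lower and none passed without the block. Blk, a tyrosine kinase of B cells, was higher by 2.53 ± 0.54 (adjusted p = 0.00322, and 0.0639 without the block). Summed B cell markers ran from 523 to 901 in CD34- cells and from 223 to 310 in CD34+ cells.

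Of 4 tested neutrophil markers 2 were higher, in the fits with and without the block, and the median difference was 1.41. Csf3r, the receptor for granulocyte colony-stimulating factor, stood at 6.55, 6.34 and 7.55 in CD34- cells and at 5.08, 5.14 and 5.74 in CD34+ cells (1.49 ± 0.30, adjusted p = 0.0024, limma). Mmp8, the neutrophil collagenase, was higher by 2.84 ± 0.56, with 1 count in the CD34+ sample of replicate 2. The formyl peptide receptor gene Fpr1 did not pass (0.61, adjusted p = 0.235, limma). Summed neutrophil markers ran from 148 to 443 against 83.2 to 129.

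Mast cell genes were set apart by 1 sample. The protease genes Cpa3 and Tpsb2 reached 9.30 and 9.39 in the CD34+ sample of replicate 3. Neither passed (-1.43, adjusted p = 0.321, and -2.16, adjusted p = 0.137, limma). Hdc, which encodes histidine decarboxylase and is also expressed in basophils and neutrophils, was higher in CD34- cells by 1.60 ± 0.41, but not without CD34- replicate 2 (adjusted p = 0.0523), CD34- replicate 3 (0.0505) or CD34+ replicate 2 (0.0805, difference 0.94). Siglecf, a receptor of eosinophils, did not pass (0.08, adjusted p = 0.945, limma).

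**Figure D3:**
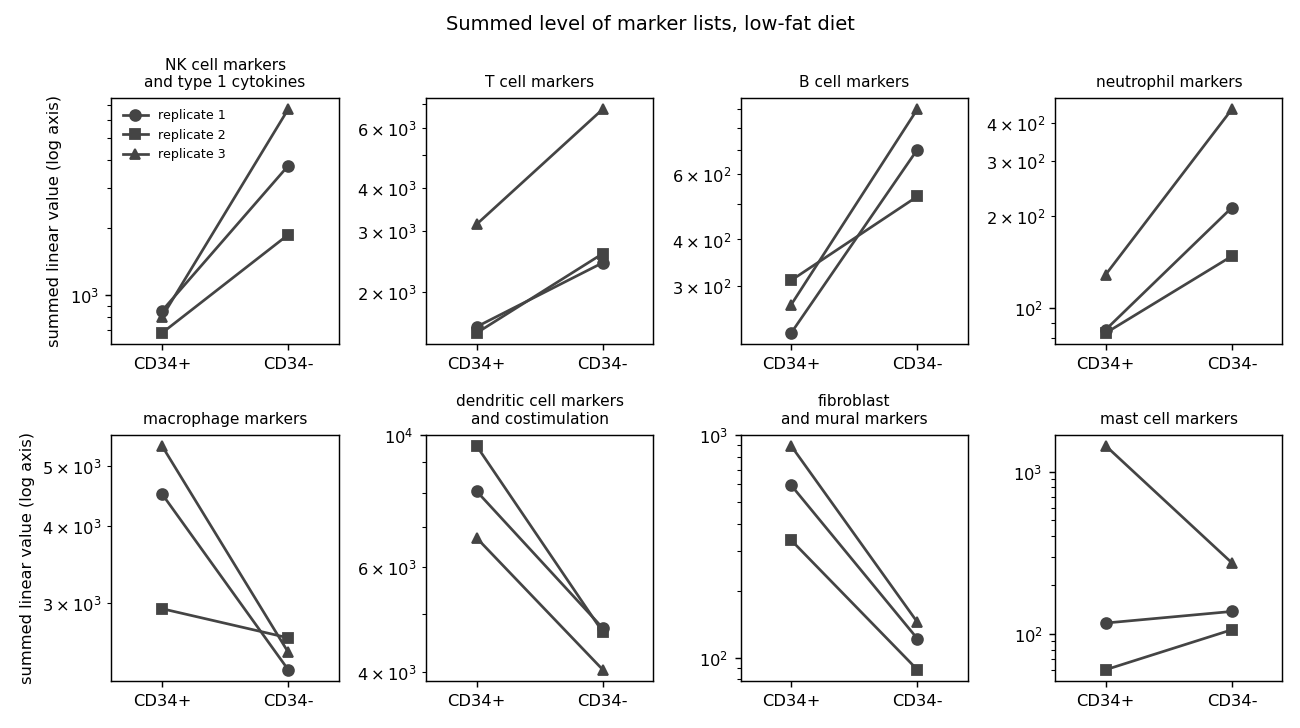
Summed linear values (log axis, scale differing between panels) of 8 lists of cell type markers in the 6 low-fat samples, with a line joining same-numbered samples. NK, T, B and neutrophil markers were higher in the CD34- sample of all 3 pairs, macrophage, dendritic cell and fibroblast markers were lower in all 3, and mast cell markers differed in direction.

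Macrophage markers were not higher in the population labelled as monocytes and macrophages. Of the 4 tested (Cd68, Cd14, Cd163 and Csf1r) none was higher and 3 were lower in CD34- cells, but without the block only Cd163 was lower (adjusted p = 0.122 for Cd68 and 0.191 for Cd14). The summed list ran from 2344 to 2639 in CD34- cells and from 2942 to 5395 in CD34+ cells, and as a share of the counts it was nearly equal in pair 2 (0.896% against 0.899%). Cd163, the haemoglobin scavenger receptor of tissue macrophages, stood at 3.71, 3.63 and 4.17 in CD34- cells and at 6.45, 5.64 and 7.02 in CD34+ cells. The groups did not overlap, and the difference was -2.53 ± 0.30 (adjusted p = 3.64e-05, limma). Fewer than 20 counts lay behind the Cd163 value of the shallow CD34- sample of replicate 3. Cd14, the lipopolysaccharide coreceptor, and Cd68, a lysosomal glycoprotein, were lower by smaller amounts (-0.87 ± 0.28 and -0.73 ± 0.21). Both calls ended without replicate 1 or 3 of either population, with adjusted p of 0.0815 to 0.231 for Cd14 and 0.0862 to 0.143 for Cd68. Csf1r, the receptor that macrophages need to survive, did not pass (-0.57, adjusted p = 0.0587, limma), nor did the monocyte chemokine receptor gene Ccr2 (-0.16, adjusted p = 0.784). Il10, an anti-inflammatory cytokine, was lower by 1.51 ± 0.37 on the log2 scale, but not without CD34+ replicate 1 (adjusted p = 0.078), while Arg1 and Pparg did not pass (-0.63 and -0.12). Of the progenitor markers, Cebpa, a transcription factor of myeloid progenitors, had a difference of -0.82 and did not pass (adjusted p = 0.0678, limma).

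Of 4 tested dendritic cell genes 3 were lower and none higher. Without the block only Ccr7 was lower (adjusted p = 0.0901 for Cd86 and 0.12 for Irf4, limma). Ccr7, the receptor that guides mature dendritic cells to lymph nodes, stood at 10.63, 10.69 and 10.66 in CD34- cells and at 12.04, 12.65 and 11.93 in CD34+ cells. The 3 CD34- values were nearly equal and lay below all CD34+ values, and the difference was -1.55 ± 0.17 (adjusted p = 2.27e-05, limma). Cd86, a costimulatory ligand, and Irf4, a transcription factor of type 2 conventional dendritic cells, also passed (-0.76 ± 0.20 and -0.71 ± 0.19). The Cd86 call ended without CD34- replicate 3 (adjusted p = 0.104) or CD34+ replicate 1 (0.066), and the Irf4 call without replicate 1 of either population, CD34- replicate 2 or CD34+ replicate 3 (0.0676 to 0.0945). Irf8, of type 1 conventional dendritic cells, did not pass (0.36, adjusted p = 0.249, limma). The summed list of these 4 genes ran from 4041 to 4744 in CD34- cells and from 6717 to 9579 in CD34+ cells. Genes of MHC class II, which presents peptides to CD4+ T cells, were close together, with a median difference of -0.13 over 8 genes. The only one that passed was H2-DMb2 (0.65 ± 0.20), which encodes a chain of a peptide-loading molecule, and it did so in only 1 of the 6 fits that left a sample out (adjusted p 0.049 to 0.152). Of 5 class I presentation genes only the immunoproteasome gene Psmb8 passed (-0.55 ± 0.16), again in only 1 of those 6 fits (adjusted p 0.0267 to 0.128).

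Several collagen genes were lower in CD34- cells. Of 9 fibrillar and interstitial collagen genes on the panel 5 were tested, of which 4 were lower and none higher, with a median difference of -2.37, and 3 were lower without the block. Col3a1, a fibrillar collagen chain, stood at 3.64, 3.79 and 4.17 in CD34- cells and at 7.51, 7.08 and 8.28 in CD34+ cells. The groups lay far apart, and its difference of -3.75 ± 0.48 (adjusted p = 6.6e-05, limma) was the largest of the lower genes. Its value in the shallow CD34- sample of replicate 3 rested on fewer than 20 counts. Col1a2, a chain of type I collagen, was lower as well (-3.09 ± 0.60), as were Col5a1 (-2.37 ± 0.47) and Col6a3 (-1.71 ± 0.47). The Col6a3 call ended without replicate 2 of either population or CD34+ replicate 1 (adjusted p 0.0542 to 0.0953). Col1a1, the other chain of type I collagen, did not pass (-1.54, adjusted p = 0.137, limma). Of 6 tested basement membrane genes 1 was lower, Col4a2 (-2.16 ± 0.34), a chain of type IV collagen. Col4a1 did not pass (-0.86, adjusted p = 0.0823, limma).

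Beyond the collagens, 3 of 10 matrix glycoprotein and crosslinking genes were lower and none higher, with a median of -0.73. Fn1, which encodes fibronectin, stood at 7.50, 8.19 and 9.28 in CD34- cells and at 9.65, 9.78 and 12.05 in CD34+ cells. The lowest CD34+ value lay above the highest CD34- value, and in both populations replicate 3 was the highest (-2.17 ± 0.35, adjusted p = 0.000433, limma). Postn, which encodes the matricellular protein periostin, differed by -2.84 ± 0.76, but its adjusted p was 0.0957 without the block, 0.112 without CD34- replicate 2 (difference -1.79) and 0.0733 without CD34+ replicate 2. Serpinh1, a collagen chaperone, differed by -1.43 ± 0.43, and the call ended without replicate 2 or 3 of either population (adjusted p 0.0945 to 0.134). Genes without a call in this list included Spp1 and Thbs1 (-0.14 and 0.14), which encode osteopontin and thrombospondin 1.

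Among metalloproteases and their inhibitors 7 of 13 tested (17 on the panel) were lower and 1, Mmp8, was higher. Without the block 1 remained in each direction. Mmp14, a membrane-bound collagenase, stood at 5.57, 5.19 and 4.17 in CD34- cells and at 6.91, 6.23 and 6.31 in CD34+ cells (-1.51 ± 0.30, adjusted p = 0.00224, limma). All 3 CD34- values were below all CD34+ values, and that of the shallow replicate 3 rested on fewer than 20 counts. The gelatinase gene Mmp2 (-1.64 ± 0.54) passed in none of the 6 fits that left a sample out (adjusted p 0.0689 to 0.209), and the collagenase gene Mmp13 (-1.44 ± 0.38) passed only without CD34- replicate 2 or CD34+ replicate 2 and reached 0.1 without CD34- replicate 3.

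Of 5 tested fibroblast and mural markers 3 were lower, Col3a1 and Col1a2, which also stand in the collagen list, and Cxcl12 (-1.62 ± 0.37), a chemokine of stromal cells, whose call ended without CD34+ replicate 3 (adjusted p = 0.0566). Acta2, of smooth muscle and myofibroblasts, did not pass (-0.93, adjusted p = 0.11, limma), and Pdgfrb and Fap were left out as low. The summed fibroblast list ran from 88.1 to 144 in CD34- cells and from 337 to 895 in CD34+ cells. None of the 4 endothelial markers passed, among them Pecam1 (0.58, adjusted p = 0.103) and Flt1 (-0.55, adjusted p = 0.206). Of 2 tested adipocyte markers, Adipoq, which encodes adiponectin, was lower by 1.75 ± 0.46 on the log2 scale, but not without CD34- replicate 3 (adjusted p = 0.102) or CD34+ replicate 1 (0.0803). These cell types would be CD45-negative, and the part of their RNA in the collagen differences was not tested.

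Several chemokine ligands were lower in CD34- cells. Of 10 tested 6 were lower and 1, Xcl1, was higher, with a median of -1.35, and without the block 3 were lower and 1 higher. Ccl2, which recruits monocytes through Ccr2, stood at 8.02, 8.23 and 4.66 in CD34- cells and at 10.05, 9.68 and 10.35 in CD34+ cells. The shallow CD34- sample of replicate 3 was the lowest by a wide margin, on fewer than 20 counts. The difference of -3.06 ± 0.61 (adjusted p = 0.00222, limma) was -1.84 without that sample (adjusted p = 0.00586). Cxcl1, which recruits neutrophils, stood at 7.44, 6.66 and 5.76 against 9.997, 9.02 and 8.48. All 3 pairs differed by nearly the same amount, and the difference was -2.55 ± 0.32 (adjusted p = 6.32e-05, limma). The Cxcl1 value of the shallow CD34- sample of replicate 3 also rested on fewer than 20 counts. Cxcl2, its neighbour on the chromosome with a like role, stood at 6.03, 4.30 and 6.02 against 6.49, 7.12 and 7.65, with fewer than 20 counts in CD34- replicate 3. Its difference of -1.64 ± 0.41 passed with all samples (adjusted p = 0.00955) but not without the block (0.081), without CD34- replicate 2 (0.0805, difference -1.05), without CD34+ replicate 2 (0.0689) or without CD34+ replicate 3 (0.0598). Of the chemokine receptors, Cxcr6, found on NK and T cells, was higher by 2.22 ± 0.45 and by 1.48 without CD34- replicate 3. Ccr4, of T helper cells, was higher by 2.02 ± 0.62, but not without replicate 2 of either population, CD34- replicate 3 or CD34+ replicate 1 (adjusted p 0.0881 to 0.175). Cxcr4 and Cxcr3 did not pass (0.06 and 0.37).

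NF-kB is a transcription factor family of inflammatory induction. Of 16 Toll-like receptor and NF-kB genes 4 were lower and none higher (median -0.46), and 2 of them were lower without the block. This count is near the background of 15.8% lower and 22.1% passing over all 594 genes. Relb, a subunit of the noncanonical dimer, stood at 9.35, 9.41 and 8.48 in CD34- cells and at 11.03, 10.70 and 9.74 in CD34+ cells (-1.41 ± 0.25, adjusted p = 0.000907, limma). Replicate 3 was the lowest in both populations, and the groups did not overlap. Traf6, an adaptor below Toll-like and interleukin 1 receptors, was also lower (-1.08 ± 0.23). The inflammasome sensor Nlrp3 (-0.92 ± 0.26) and the kinase gene Ikbkb (-0.76 ± 0.20) passed, but each in only 2 of the 6 fits that left a sample out, with adjusted p of up to 0.149 without CD34+ replicate 1 for Nlrp3 and 0.104 for Ikbkb. The subunit genes Nfkb1 and Rela did not pass (0.04 and -0.47), nor did Tlr2 and Tlr4 (-0.73 and -0.66). Of 7 inflammatory cytokine genes 2 were lower, Il10 and Tnf (-0.68 ± 0.23), the latter in none of the 6 fits that left a sample out (adjusted p 0.0712 to 0.196). Il1b, Il6 and Ptgs2 did not pass (-0.17, -0.73 and -0.10).

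The promoter windows of Cxcl1 and Cxcl2 are shown because both held the letters of an NF-kB motif (GGG, any 3 bases, then TTCC, on either strand) more than once, and both genes were lower alongside Relb. They come from RefSeq (GRCm38.p6) with the same bounds as above, both on the plus strand, at chr5:90890995-90891294 for Cxcl1 and chr5:90903649-90903948 for Cxcl2, and the matching letters are in capitals.
Cxcl1: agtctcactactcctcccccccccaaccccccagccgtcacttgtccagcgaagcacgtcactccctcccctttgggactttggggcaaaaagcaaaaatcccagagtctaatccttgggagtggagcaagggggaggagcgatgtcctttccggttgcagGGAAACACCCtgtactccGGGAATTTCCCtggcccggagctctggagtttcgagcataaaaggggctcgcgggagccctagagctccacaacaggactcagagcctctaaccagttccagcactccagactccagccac
Cxcl2: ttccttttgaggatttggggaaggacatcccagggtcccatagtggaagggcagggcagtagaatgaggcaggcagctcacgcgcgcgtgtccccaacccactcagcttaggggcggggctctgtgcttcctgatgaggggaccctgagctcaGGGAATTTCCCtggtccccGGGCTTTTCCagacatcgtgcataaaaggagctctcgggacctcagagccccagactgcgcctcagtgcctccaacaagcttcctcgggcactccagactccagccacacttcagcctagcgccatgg
Each window held 3 matches, of which 2 overlapped in the same 11 letters. The motif was found in 8 of 72 lower genes with a window (11.1%), in 2 of 30 higher genes (6.67%), in 8.30% of tested genes and in 5.52% of all windows. A match is a description of the letters, and binding was not measured.

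Interferon response genes did not move together. Of 10 tested 1 was higher and 2 were lower, with a median of 0.12. Ifngr1, a chain of the interferon-gamma receptor, stood at 10.29, 10.39 and 11.16 in CD34- cells and at 8.91, 9.48 and 9.91 in CD34+ cells (1.18 ± 0.23, adjusted p = 0.002, limma). Its ligand gene Ifng was also higher in the CD34- samples, as given above, and whether the same cells held both was not measured. The guanylate-binding protein gene Gbp3 (-1.14 ± 0.27, adjusted p = 0.0517 without the block) and the transcription factor Irf1 (-0.99 ± 0.19) were lower, while Isg15 did not pass (-0.40). Of 16 cytokine receptor and JAK-STAT genes 3 were higher (Il2rb, Csf3r and Il18r1) and 2 lower, Ptger4 (-1.04 ± 0.20), which encodes a prostaglandin E2 receptor, and the kinase gene Jak2 (-0.95 ± 0.17).

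Of 17 tested genes of lipid uptake, fatty acid and sterol handling 4 were lower and 1 higher, with a median of -0.20. Both the count and the median were near those of all 594 genes, of which 15.8% were lower and 22.1% passed. Fabp5, a fatty acid carrier, stood at 10.06, 9.81 and 9.08 in CD34- cells and at 12.36, 12.22 and 11.12 in CD34+ cells. The pairs differed by like amounts, and the difference was -2.25 ± 0.24 (adjusted p = 1.97e-05, limma). Lpl, which encodes lipoprotein lipase, stood at 3.90, 4.13 and 4.17 against 5.78, 6.55 and 8.31. Its CD34- values were nearly equal and below all CD34+ values (-2.81 ± 0.40, adjusted p = 0.000144, limma). In the shallow CD34- sample of replicate 3 the Lpl value rested on fewer than 20 counts. The cholesterol exporter gene Abca1 (-1.11 ± 0.23) and the fatty acid scavenger receptor gene Cd36 (-0.99 ± 0.33) were lower, and the Cd36 call ended without the block (adjusted p = 0.2) and without replicate 2 or 3 of either population (0.137 to 0.298, and a difference of -0.59 without CD34+ replicate 3). Scd1, a desaturase of fatty acid synthesis, was higher by 1.17 ± 0.34, but its adjusted p was 0.181 without the block, and it passed only without CD34- replicate 1 among the 6 fits (up to 0.143 without CD34- replicate 3). Pltp, a phospholipid transfer protein, was lower (-2.14 ± 0.38). Of 6 lysosomal genes 3 were lower, Ctsb (-0.78 ± 0.19), Cd68 and Lipa (-0.62 ± 0.21), and none of them without the block. Ctsb, a cathepsin, lost its call without CD34+ replicate 3 (adjusted p = 0.064), and Lipa, the lysosomal acid lipase, passed only without CD34+ replicate 2 (0.0435 to 0.208 over the 6 fits).

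Growth factor and complement genes held some of the largest lower differences. Igf1, which encodes insulin-like growth factor 1, stood at 3.13, 1.54 and 2.85 in CD34- cells and at 5.31, 5.38 and 6.93 in CD34+ cells. The CD34- values rested on 14, 4 and 2 counts, and the difference was -3.37 ± 0.44 (adjusted p = 7.84e-05, limma). Axl, a receptor tyrosine kinase with which macrophages take up dying cells, was lower (-1.53 ± 0.23). The other 5 tested genes of growth factors and receptors did not pass, among them Vegfa (0.56) and Pdgfb (-0.56). Of 4 tested complement genes (7 on the panel) 2 were lower with and without the block. These were the receptor gene C3ar1 (-2.55 ± 0.36) and the C1 inhibitor gene Serping1 (-2.08 ± 0.46). C3 itself did not pass (-0.31, adjusted p = 0.514, limma). Nrp2, a coreceptor for semaphorins and vascular endothelial growth factors, stood at 7.97, 7.72 and 7.98 in CD34- cells and at 10.39, 9.82 and 9.90 in CD34+ cells. It had the smallest adjusted p of all 594 genes (-2.15 ± 0.17, adjusted p = 2.32e-06, limma).

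Of 7 oxidative stress genes 3 were lower, none of them without the block. Hmox1, the haem-degrading enzyme, differed by -1.43 ± 0.28 (adjusted p = 0.0558 without the block), the catalase gene Cat by -0.78 ± 0.20 (0.0523 without CD34- replicate 2) and the thioredoxin gene Txn1 by -0.68 ± 0.18 (0.0614 to 0.074 without replicate 1 or 2 of CD34+ cells or replicate 3 of CD34- cells).

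At most 1 gene passed in each of the next lists, beside 15.8% lower and 22.1% passing over all 594 genes. In the short integrin and cell cycle lists 1 gene is near that share. None of 14 respiratory chain genes passed, and their median difference was -0.07, with Cox7c at -0.32 (adjusted p = 0.18) and Uqcrb at -0.26 (adjusted p = 0.27). Of 10 TGF-beta and BMP genes 1 was lower, the ubiquitin ligase gene Smurf1 (-1.06 ± 0.30), whose call ended without CD34- replicate 3 (adjusted p = 0.0965), CD34+ replicate 1 (0.0693) or CD34+ replicate 3 (0.113). Tgfb1, which encodes the fibrogenic ligand, did not pass (0.38, adjusted p = 0.143), nor did the receptor genes Tgfbr1 and Tgfbr2 (-0.27 and 0.28). Of 19 MAPK, PI3K and RAS genes 1 was lower, the PI3K subunit gene Pik3r5 (-1.08 ± 0.27), but not without CD34- replicate 3 (adjusted p = 0.0505) or CD34+ replicate 1 (0.0678). Of 6 integrin genes Itgb1, the common beta 1 chain, was lower (-0.59 ± 0.19), in only 2 of the 6 fits that left a sample out (adjusted p up to 0.237 without CD34+ replicate 1). Of 4 cell cycle genes the inhibitor gene Cdkn1a was lower (-0.80 ± 0.23), also in only 2 of those 6 fits (up to 0.113 without CD34+ replicate 3). The proliferation marker Mki67 did not pass (-0.60, adjusted p = 0.321, limma). The panel held none of the listed epithelial or platelet markers.

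**Figure D4:**
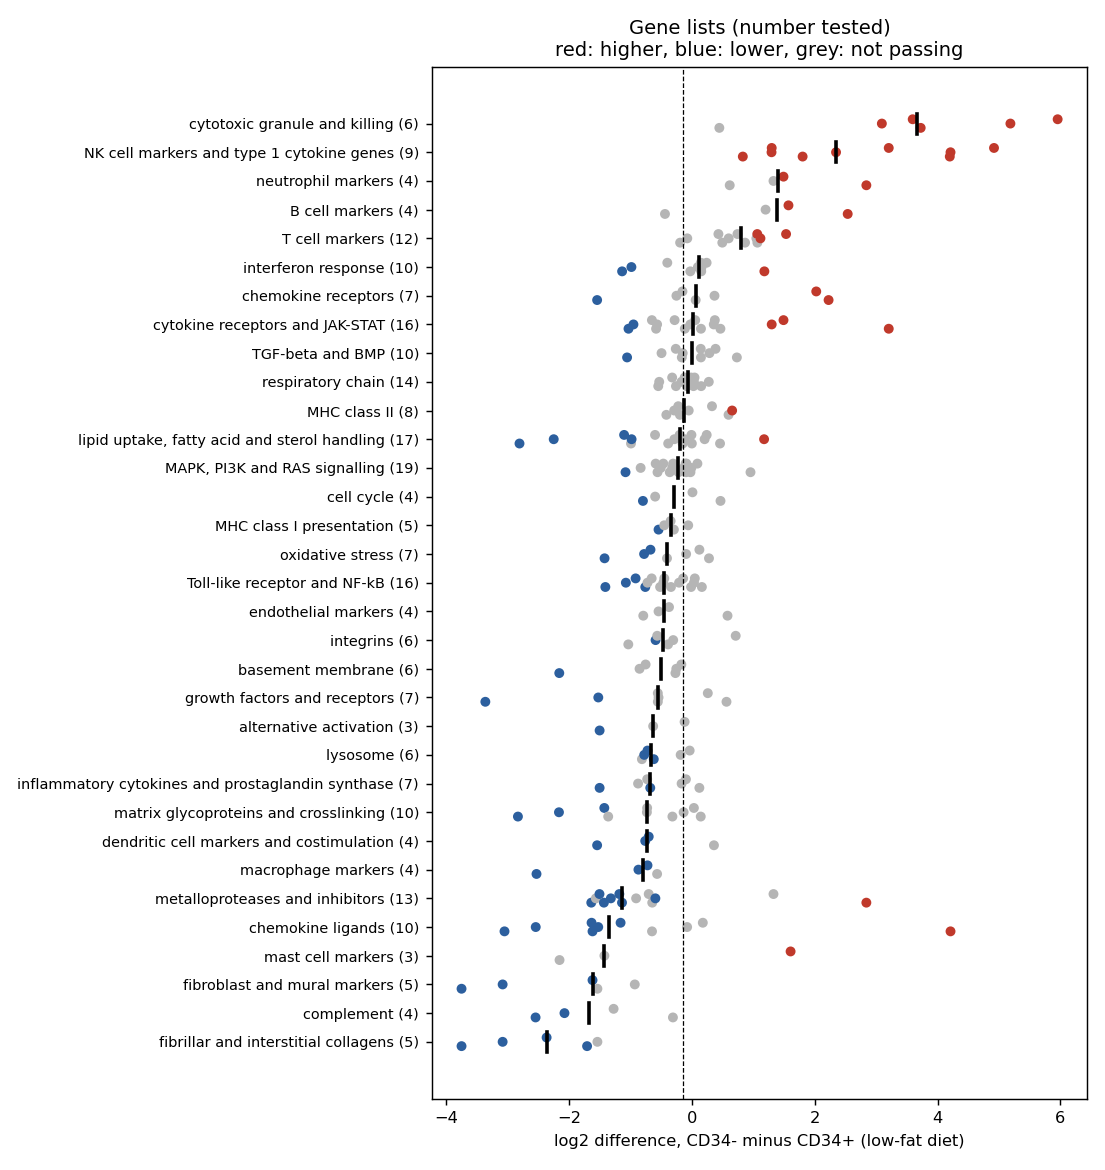
Log2 difference of each tested gene, one row per gene list with at least 3 tested genes, coloured red or blue where the gene was higher or lower in CD34- cells (adjusted p under 0.05, limma) and grey where it did not pass. Black bars are list medians, from 3.66 for cytotoxic genes to -2.37 for fibrillar collagens, and the dashed line is the median of all 594 genes (-0.14).

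The size of the differences varied between the pairs. Over the 37 higher genes the median difference was 1.18 in pair 1, 1.64 in pair 2 and 1.92 in pair 3, and 22 of them were largest in pair 3. Over the 94 lower genes the medians were -1.29, -1.05 and -1.26, and 44 of them were largest in pair 1. The median difference of all 594 genes was -0.30, -0.15 and -0.0045 in the 3 pairs. The shallowest sample stood in pair 3, and without both samples of that pair 96 genes passed, 21 higher and 75 lower.

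The authors' deposited table listed 31 genes in 2 clusters, which the study chose from these samples, so it is no independent evidence. Of these 31 genes, 30 were among the 131 and 25 passed without the block. Rnf152 was the exception (-0.90, adjusted p = 0.0541, limma). The authors' deposited table put Ncr1, Gzma and Xcl1 in the smaller cluster and the other 28 genes in the larger one. Its genes made up 22.9% of the 131.

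The diets were compared to see whether the population difference was the same in mice on the high-fat diet. There 142 genes passed (23.9%), 99 higher and 43 lower in CD34- cells on the deposited values. That split also depended on the scaling, with 57 higher and 65 lower after re-centring, 69 and 52 after quantile normalization, and 165 and 38 with voom. The shared genes were counted on the deposited values. Between the diets 73 genes passed in the same direction and none in opposite directions. The 35 shared higher genes were 94.6% of those higher on the low-fat diet and 35.4% of those on the high-fat diet, and the 38 shared lower genes were 40.4% and 88.4%. Gzma had a difference of 4.41 ± 0.57 on the high-fat diet and Col3a1 of -2.58 ± 0.48. The summed fibroblast list, which holds Col3a1, was uneven in high-fat CD34+ cells. It stood at 5168 in replicate 2, against 759 in replicate 1 and 680 in replicate 3. The median difference of all 594 genes between the diets (low-fat minus high-fat) was -0.36, so that lower genes were favoured on the low-fat diet and higher genes on the high-fat diet before any gene is considered.

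The test of the difference between the diets passed for 7 genes (1.18%), all with a more negative difference on the low-fat diet. Il21r, the interleukin 21 receptor, stood at 8.41, 8.03 and 9.30 in low-fat CD34- cells and at 9.62, 9.05 and 9.04 in low-fat CD34+ cells, and at 8.70, 9.26 and 8.23 against 7.28, 7.57 and 6.72 on the high-fat diet. The low-fat groups overlapped and the high-fat groups did not, and the difference between the diets was -2.19 ± 0.39 (adjusted p = 0.0145, limma). Nrp2 stood at 8.63, 8.21 and 8.70 in high-fat CD34- cells and at 9.42, 9.04 and 9.32 in high-fat CD34+ cells, and differed between the diets by -1.41 ± 0.25 (adjusted p = 0.0145). With each sample centred on its median, none of the 594 genes passed this test (limma, 60 at an unadjusted p under 0.05), and without the block none did either (52 unadjusted).

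**Figure D5:**
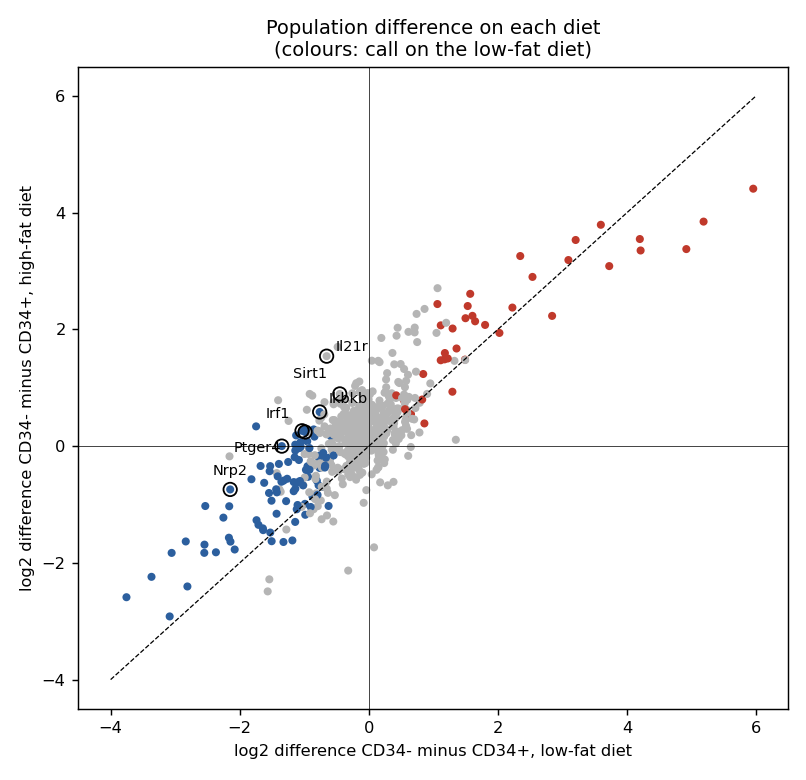
Log2 difference between CD34- and CD34+ cells on the low-fat diet (x axis) and the high-fat diet (y axis) for 594 genes, red or blue where higher or lower on the low-fat diet. Circles mark the 7 genes that passed the test of the difference between diets, all above the dashed line of equal differences, as were most genes, the median difference between the diets being -0.36.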

How the data were processed

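Per the labels' protocols, RNA of sorted cells was converted to cDNA, amplified with low-input primers and measured on the nCounter Fibrosis V2 panel. The authors deposited log2 normalized values for 760 genes in 12 samples. The constant behind their normalization is unknown here. Within each sample the values equalled log2 of a whole count plus a constant: taking the lowest value as 1 count, 98.0% to 99.6% of values came out whole within 0.1. If that lowest value is a floor, the recovered counts and totals are nominal. A second deposited table holds the authors' gene-centred values of 31 genes and a cluster number for each (another kind of value, used as a label). Values recomputed from the first table differed from it by at most 3.33e-10.

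Genes that reached 20 on the linear scale in 3 or more samples were tested with limma 3.58.1 (statmod 1.5.0, R 4.3.3): 4 group means over all 12 samples, replicate number within a diet as a random block (consensus correlation 0.448), variance trend, two-sided tests, Benjamini-Hochberg adjustment over 594 genes. The pairing was taken from the replicate numbers in the titles and from the correlations of deviations. On the low-fat diet these were 0.306 to 0.434 in same-numbered pairs and reached 0.143 in 1 pair with different numbers. The low values of different numbers follow in part from the high values of same numbers, and the pairing was not tested separately. Replicates are separate samples of 3 mice per diet, so the p-values rest on few animals. An exact two-sided permutation test of 1 gene that ignores the pairs cannot go below 0.1 with 3 samples against 3. A permutation test within the 3 pairs has fewer arrangements and a higher lower bound. Alternatives changed the block, scaling, filter, pseudocount (20), variance trend, weights (voom) and samples. The code was tested on simulated data.

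The members and the 39 gene lists were chosen with earlier results of these data known. Named genes were the 15 largest differences in each direction, up to 4 passing genes per list (or the 2 with the smallest p where none passed), the 5 smallest p between the diets, and Cd34 and Ptprc. Genes given as not passing, and Klrd1, Klrk1, Jak2, Cd36 and Rnf152, were added after their values were seen. Some genes that the rule names are not reported here. Promoter windows were matched by symbol for 446 of the 594 genes.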

Additional observations from a re-analysis of the deposited data

Results flagged for a closer look

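In 7 genes the population difference differed between the diets (low-fat minus high-fat, interaction contrast of limma with the replicate number as a block). Of these, 6 are given here. The log2 differences were -2.19 for Il21r, -1.41 for Nrp2, -1.35 for Ikbkb, -1.30 for Ptger4, -1.23 for Irf1 and -1.34 for Sirt1, with adjusted p of 0.0145, 0.0145, 0.0431, 0.0431, 0.0468 and 0.0472. Irf1 was named for its list, and Sirt1, a deacetylase, was named after its values were seen. Il21r and Sirt1 had differences of opposite sign, -0.65 and -0.45 on the low-fat diet and 1.54 and 0.89 on the high-fat diet. None of the 7 passed after each sample was centred on its median.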

How the results depend on the processing

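For the low-fat comparison, 131 genes passed. The count was 58 with no replicate block, 60 with neither filter nor block, 58 with samples re-centred and no block, and 73 to 106 with a low-fat sample or pair left out, the lowest without pair 1. It lay between 95 and 149 under the other alternatives. The fixed block gave 149 genes, of which 129 were among the 131. The 85 named genes that were followed through the alternatives all kept their side of the threshold in it. Some genes given as not passing are outside these 85. Of those, Csf1r, Il6 and Tlr2 passed with the fixed block (adjusted p = 0.036, 0.0186 and 0.0331, limma). With no block 38 of the 85 no longer passed. The 85 also include genes that had not passed in the main low-fat comparison, among them Siglecf, Ccr2 and Il21r. No named gene that passed changed direction under any alternative run. The re-centred fits with another block and the fit without the high-fat CD34+ sample of replicate 2 were chosen after seeing the data.

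For the difference between the diets, 7 genes passed. None passed with no block, with re-centred samples under any of 3 block settings, with quantile normalization, with no variance trend, or with neither filter nor block (limma, 20 to 108 genes at an unadjusted p under 0.05), and 2 passed with no filter and with voom. Leaving out a low-fat sample or pair gave 0 to 23 genes, 23 without the shallow CD34- replicate 3, 22 without pair 3, 7 without CD34+ replicate 3 and 0 in the others (56 to 117 unadjusted). The causes were not tested. Depth limited the low genes: 6 of the 131 had fewer than 20 counts in every sample of the lower group, and fewer than 20 counts stood in CD34- replicate 3 for 33 of the 94 lower genes.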

Other observations

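Of the 131 genes, 47 stood in none of the lists, and the following were picked from them after their values were seen. Bcl2, an inhibitor of apoptosis, was higher in CD34- cells by 1.36 ± 0.37 on the log2 scale (adjusted p = 0.0135, limma), but not without CD34- replicate 3 (0.123) or CD34+ replicate 2 (0.0961). Its relative Bcl2l1 differed by -1.14 ± 0.28, though not without replicate 1 of either population or CD34- replicate 2 (adjusted p 0.0629 to 0.0839). Cflar, which blocks caspase-8, stood at 7.11, 6.95 and 7.37 in CD34- cells and at 8.44, 8.41 and 8.64 in CD34+ cells (-1.35 ± 0.24, adjusted p = 0.000907, limma). The groups of Cflar did not overlap, and the inhibitor gene Birc3 was lower as well (-0.85 ± 0.20).

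The next 4 genes, of adhesion and cell contact, were picked the same way and do not stand for a group: of the 6 tested integrin genes only Itgb1 was lower. Vcam1, the ligand of integrin alpha 4, stood at 6.53, 7.14 and 6.17 in CD34- cells and at 9.12, 8.33 and 7.61 in CD34+ cells (-1.74 ± 0.29, adjusted p = 0.000615, limma). Icam1, the ligand of the beta 2 integrins, stood at 9.90, 9.76 and 9.78 against 11.08, 10.83 and 10.60 (-1.02 ± 0.17, adjusted p = 0.000512, limma). Neither gene had overlapping groups. The hyaluronan receptor gene Cd44 (-1.25 ± 0.25) and the Notch ligand gene Jag1 (-1.82 ± 0.25) were also lower. Each of Cflar, Birc3, Vcam1, Icam1, Cd44 and Jag1 passed without the block and in all 6 fits that left a low-fat sample out.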
